A study of Homo sapiens with 3 samples.

Results

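The genes of the mitochondrial ATP synthase were followed through a pooled knockout screen as the 176 guide RNAs whose target symbol begins with ATP5, out of 30197 guides in the library. These guides target 18 of 2978 genes, with 10 guides for each gene except ATP5E, which has 6. The symbols are the older ones used by the library, and all 18 matched a protein-coding gene of the RefSeq annotation of GRCh38.p14, whose current names are given with each gene. The coordinates given are those of the whole gene, and the positions cut by single guides within exons were not analysed here.

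The cells were MIA PaCa-2, an established line of human pancreatic ductal adenocarcinoma cells, transduced with a Cas9 knockout library against metabolic genes. The 3 libraries were cells kept for 14 days with the PIKfyve inhibitor apilimod, cells kept for 14 days with the solvent DMSO, and the untreated initial population at day 0, all of them carrying the same guide pool. PIKfyve is a lipid kinase of endosomes and lysosomes. The sample label gives 200 nM of apilimod, whereas the study's methods state other concentrations. Those methods describe a low-dose screen collected on day 14 and a high-dose screen collected later. The 14 days of these libraries match the low-dose screen, but its stated concentration differs from the label, so the exact concentration of this arm is not settled. With 1 library per group there was no replicate check on any difference, and each test compares these libraries, not the conditions.

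ATP synthase is the last enzyme of oxidative phosphorylation. Protons pumped out by the respiratory chain return to the mitochondrial matrix through its membrane part, which turns a ring of c subunits and, with it, the central stalk inside the catalytic F1 head, where ADP and phosphate are joined to ATP. A peripheral stalk keeps the head from turning along, and small membrane subunits link pairs of enzymes and help to shape the cristae.

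Guides against the ATP synthase took up a smaller share of both 14-day libraries than of the initial population. The 176 guides held 136783 of 25599416 counts in apilimod (0.534%, 95% Wilson interval 0.532 to 0.537%), 145193 of 26276517 counts in DMSO (0.553%, 0.550 to 0.555%) and 169693 of 24695476 counts in the initial population (0.687%, 0.684 to 0.690%). The intervals of the 3 libraries did not overlap, but they cover counting error only, because reads amplified by PCR without molecular identifiers are not independent cells. The median ATP5 guide had 617 counts in apilimod, 649 in DMSO and 827 in the initial population, beside medians of 647, 655 and 645 counts over all gene-targeting guides in the same 3 libraries. Of the 176 guides, 170 reached the minimum of 100 initial counts and all 18 genes kept at least 6 guides. The 6 guides left out, 1 each against ATP5A1, ATP5G1, ATP5H, ATP5I, ATP5L and ATP5S, had between 21 and 96 initial counts.

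The change of a guide was taken as the log2 ratio of its share of the library to its share of the initial population, and the gene score as the mean of that change over the gene's guides. The median score of the 18 ATP5 genes was -0.63 in apilimod and -0.50 in DMSO, beside -0.04 and -0.03 over all 2969 genes scored. With the median over guides as the gene score, both arms were at -0.39, beside -0.01 in apilimod and 0.03 in DMSO over all genes. By the exact rank-sum test of a gene's guides against 487 intergenic control guides, with Benjamini-Hochberg adjustment over the 2969 genes, 11 of the 18 genes were lower in apilimod, where 29.0% of all genes were, and 11 were lower in DMSO, where 18.9% of all genes were. In both arms 10 genes were called, and the share of all genes called in both was not counted. Both arms were divided by the same initial library, so their calls are not independent. None of the 18 was called higher in either arm, beside 0.236% of all genes in apilimod and 0.842% in DMSO. The called scores ran between -2.01 and -0.42 in apilimod and between -1.85 and -0.33 in DMSO.

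Single guides gave a similar description without a test. Of the 170 guides, 58 (34.1%) lay below the 2.5th percentile of the control guides in apilimod, beside 14.5% of all gene-targeting guides, and 53 (31.2%) did so in DMSO, beside 13.5%. In both arms 45 of these guides lay below the percentile, and the share of all guides that did so was not counted. Above the matching upper limit, exceeded by the highest 2.5% of control guides, there were 0 ATP5 guides in apilimod and 1 in DMSO. The share of all gene-targeting guides above it was not counted in either arm. The control guides themselves were spread more widely in apilimod, with an SD of 0.73 and that upper limit at 2.41, against an SD of 0.40 and an upper limit of 0.85 in DMSO, on the log2 scale. The part of this wider spread in the calls was not tested. Control guides also had a median above 0 (0.22 in apilimod and 0.14 in DMSO), and the test reads each gene against them.

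All 5 genes of the F1 head and central stalk were lower in DMSO, where 18.9% of all genes were. In apilimod 4 of the 5 were lower, where 29.0% of all genes were. The head is a ring of alternating alpha and beta subunits, of which beta carries the catalytic sites. For alpha, ATP5A1 (ATP5F1A, chr18:46080248-46104227), the 9 guides together had 3353 counts in apilimod, 4101 in DMSO and 7995 in the initial population. Its score was -1.49 ± 0.77 in apilimod and -1.20 ± 0.92 in DMSO (SD over 9 guides), and the exact rank-sum test gave adjusted p-values of 2.8e-09 and 0.00012. All 9 guides were below the control median in apilimod, as were 8 in DMSO, where guide 9 stood alone with 659 counts in DMSO and 371 in the initial population. The lowest guide in both arms, guide 6, had 197 counts in apilimod, 224 in DMSO and 1200 in the initial population. For beta, ATP5B (ATP5F1B, chr12:56638175-56645984), the score was -1.08 ± 1.24 in apilimod and -0.97 ± 1.23 in DMSO (SD over 10 guides, adjusted p by the exact rank-sum test 0.00055 and 0.042). Its guides disagreed among themselves, since guide 6 had 13 counts in apilimod, 27 in DMSO and 191 in the initial population, whereas guide 9 had 634, 540 and 358 in the same libraries.

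The delta subunit of the central stalk was the most depleted of the 18 in both arms. It sits with epsilon at the foot of the stalk, on the c-ring. ATP5D (ATP5F1D, chr19:1241751-1244825) had a score of -2.01 ± 1.78 in apilimod and -1.85 ± 1.36 in DMSO (SD over 10 guides), with adjusted p-values of 9.3e-09 and 4.1e-08 by the exact rank-sum test. All 10 guides lay below the control median in both arms, and among 2969 genes the score ranked number 56 from the lowest in apilimod and number 59 in DMSO. The lowest guide differed between the arms. Guide 3 had 4 counts in apilimod, 75 in DMSO and 356 in the initial population. Guide 7 had 43 counts in apilimod, 15 in DMSO and 291 in the initial population. Guide 6 was the highest in both and stayed near its starting share, with 1422 counts in apilimod, 1580 in DMSO and 1419 in the initial population.

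The other members of the central stalk were less depleted. ATP5E (ATP5F1E, chr20:59025475-59032335), which encodes epsilon, had a score of -0.42 ± 0.48 in apilimod and -0.65 ± 0.73 in DMSO (SD over 6 guides, adjusted p by the exact rank-sum test 0.012 and 0.017). Its lowest guide was guide 6 in apilimod, with 795 counts against 1747 in the initial population, and guide 4 in DMSO, with 49 counts against 150. Gamma, the shaft that turns within the head, is encoded by ATP5C1 (ATP5F1C, chr10:7788177-7807801). ATP5C1 was called lower in DMSO, with a score of -0.46 ± 0.53 (SD over 10 guides, adjusted p = 0.0019 by the exact rank-sum test), but not in apilimod, where the score was -0.23 ± 0.91 (adjusted p = 0.066 by the same exact test). Guide 8 had the highest change in apilimod, with 1985 counts there, 544 in DMSO and 606 in the initial population. The difference between the arms was itself not called for this gene (adjusted p = 0.80 by the exact test).

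Of the 4 peripheral stalk genes, 3 were lower in both arms. The shares of all genes called lower were 29.0% in apilimod and 18.9% in DMSO. ATP5F1 (ATP5PB, chr1:111449464-111462773), which encodes the long b subunit, had 5779 counts over 10 guides in apilimod, 7905 in DMSO and 11854 in the initial population. Its score was -1.16 ± 0.69 in apilimod and -0.63 ± 0.58 in DMSO (SD over 10 guides, adjusted p by the exact rank-sum test 8.1e-07 and 0.00085), and 8 of its guides in apilimod and 5 in DMSO lay below the 2.5th percentile of the control guides. ATP5O (ATP5PO, chr21:33903453-33915804) encodes OSCP, which joins the stalk to the top of the head, and scored -0.83 ± 0.79 in apilimod and -0.71 ± 0.60 in DMSO (SD over 10 guides, adjusted p by the exact rank-sum test 0.00070 and 5.1e-05). Most of its guides moved down together, guide 9 having 834 counts in apilimod, 1179 in DMSO and 2750 in the initial population, while guide 8 went the other way with 4927, 4961 and 3344 counts in those libraries. ATP5H (ATP5PD, chr17:75038863-75046969), the d subunit, scored -0.56 ± 0.58 in apilimod and -0.55 ± 0.66 in DMSO (SD over 9 guides, adjusted p by the exact rank-sum test 0.00037 and 0.0068). Its lowest guide was guide 2 in apilimod, with 152 counts against 441 in the initial population, and guide 10 in DMSO, with 949 counts against 2434. ATP5J (ATP5PF, chr21:25724500-25735653), which encodes coupling factor F6, was not called in either arm. Its score was -0.25 ± 0.95 in apilimod and -0.19 ± 0.51 in DMSO (SD over 10 guides, adjusted p by the exact rank-sum test 0.056 and 0.11), and of its 10 guides only guide 3 lay below the 2.5th percentile of the control guides, with 87 counts in apilimod, 174 in DMSO and 428 in the initial population.

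The 3 genes of the c-ring were not called in either arm, with scores of between 0.02 and 0.22. The medians of the control guides were 0.22 in apilimod and 0.14 in DMSO. ATP5G1, ATP5G2 and ATP5G3 encode the same mature c subunit with different mitochondrial import sequences. ATP5G1 (ATP5MC1, chr17:48892787-48895871) scored 0.22 ± 0.19 in apilimod and 0.14 ± 0.56 in DMSO (SD over 9 guides, adjusted p by the exact rank-sum test 0.98 and 0.84). ATP5G2 (ATP5MC2, chr12:53665170-53681423) scored 0.22 ± 0.74 in apilimod and 0.21 ± 0.25 in DMSO (SD over 10 guides, adjusted p by the exact rank-sum test 0.75 and 0.72). ATP5G3 (ATP5MC3, chr2:175176258-175181710) scored 0.02 ± 0.36 in apilimod and 0.11 ± 0.25 in DMSO (SD over 10 guides, adjusted p by the exact rank-sum test 0.20 and 0.79).

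The guides kept for the c-ring genes had counts in every library, and guide 1 of ATP5G1, with 46 initial counts, was left out. As summed counts, ATP5G1 had 7514 in apilimod, 7956 in DMSO and 6178 in the initial population. ATP5G2 had 13562, 12775 and 10483 in the same libraries, and ATP5G3 had 12503, 13774 and 12521. Of the 29 c-ring guides, 1 (3.45%) lay below the 2.5th percentile of the control guides in apilimod and 1 in DMSO. These were guide 10 of ATP5G2, with 61 counts in apilimod, 166 in DMSO and 186 in the initial population, and guide 3 of ATP5G1, with 688, 263 and 465 counts in those libraries. Neither guide was low in both arms. Among the 122 guides against the 13 subunit genes outside the c-ring, ATP5L2 included, 54 lay below the percentile in apilimod and 50 in DMSO. Over all gene-targeting guides the shares were 14.5% in apilimod and 13.5% in DMSO. Of those 13 genes, 10 were called lower in each arm, beside 29.0% of all genes in apilimod and 18.9% in DMSO.

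Of the 4 membrane accessory genes, 3 were lower in apilimod and 2 in DMSO, beside 29.0% and 18.9% of all genes. Against the guides of all other genes in place of the controls, 0 of the 4 were called lower in either arm. Of the 38 guides of these genes, 13 in apilimod and 9 in DMSO lay below the 2.5th percentile of the control guides. Over all gene-targeting guides 14.5% did so in apilimod and 13.5% in DMSO. ATP5I (ATP5ME, chr4:672436-674276), subunit e, had a score of -0.69 ± 1.18 in apilimod and -0.53 ± 0.62 in DMSO (SD over 9 guides, adjusted p by the exact rank-sum test 0.015 and 0.0058). Its guides were split, guide 8 having 313 counts in apilimod, 451 in DMSO and 1174 in the initial population, and guide 9 having 361, 186 and 120. ATP5J2 (ATP5MF, chr7:99458195-99466167), subunit f, had a score of -1.15 ± 2.67 in apilimod and -1.10 ± 2.63 in DMSO (SD over 10 guides, adjusted p by the exact rank-sum test 0.015 and 0.018), but the mean was set by 1 guide. Guide 10 had 0 counts in apilimod, 0 in DMSO and 327 in the initial population. A count of 0 allows up to 3 counts in the library, which makes this guide at least 113-fold lower in apilimod and at least 116-fold lower in DMSO. With guide 10 at that limit the score of ATP5J2 was -0.99 in apilimod and -0.94 in DMSO, and the medians of the 18 genes were the same as above. Without guide 10 it was -0.34 in apilimod and -0.28 in DMSO, and of the other 9 guides only guide 3 was below the 2.5th percentile of the control guides. The annotation places a read-through gene, ATP5MF-PTCD1, over the same stretch of chromosome 7.

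ATP5L, subunit g, was called in apilimod and not in DMSO. ATP5L (ATP5MG, chr11:118401606-118409847) scored -1.04 ± 1.48 in apilimod and -0.38 ± 0.90 in DMSO (SD over 9 guides, adjusted p by the exact rank-sum test 0.00016 and 0.072). Guide 4 had 12 counts in apilimod, 213 in DMSO and 342 in the initial population, the lowest change of the gene in apilimod. The lowest in DMSO was guide 9, with 481 counts in apilimod, 238 in DMSO and 1052 in the initial population. Without its lowest guide the score was -0.57 in apilimod and -0.14 in DMSO. The difference between the arms was itself not called for ATP5L (adjusted p = 0.64 by the exact test). ATP5L2 (ATP5MGL, chr22:42639803-42640601), a paralog of ATP5L, was not called in either arm. Its score was -0.34 ± 0.95 in apilimod and -0.36 ± 1.12 in DMSO (SD over 10 guides, adjusted p by the exact rank-sum test 0.17 and 0.50), with medians over guides of -0.02 and -0.03. Guides 3, 9 and 10 of ATP5L2 were below the 2.5th percentile of the control guides in both arms, and the other 7 were not.

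A pair of genes carry the ATP5 prefix without encoding a core subunit. ATP5SL, now named DMAC2 (chr19:41431318-41439912), is an assembly factor of respiratory complex I. It was lower in both arms, with a score of -0.69 ± 0.50 in apilimod and -0.33 ± 0.50 in DMSO (SD over 10 guides, adjusted p by the exact rank-sum test 6.6e-06 and 0.026). All 10 of its guides were below the control median in apilimod, as were 7 in DMSO, and guide 10 had 996 counts in apilimod, 1517 in DMSO and 2536 in the initial population. ATP5S, now DMAC2L (chr14:50311516-50327957), known as coupling factor B, was not called. Its score was 0.17 ± 0.78 in apilimod and -0.11 ± 0.26 in DMSO (SD over 9 guides, adjusted p by the exact rank-sum test 0.55 and 0.076). Guide 5 of ATP5S had the highest change of all 170 guides in apilimod, with 921 counts there, 228 in DMSO and 254 in the initial population.

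Next, the arms were set against each other to ask whether loss of the enzyme changed fitness under apilimod. The guides' changes were scaled in each arm to a median of 0 for the control guides and -1 for 27 nucleotide synthesis genes, and the difference was taken as apilimod minus DMSO. Before scaling, the median score of these 27 genes was -1.71 in apilimod and -1.46 in DMSO. In the scaled difference 2 of the 27 were themselves called higher. Both arms share the initial library, which cancels in the unscaled log2 ratio of apilimod over DMSO but not in the scaled difference. None of the 18 genes was called lower or higher, where 0.539% of all genes were lower and 0.202% were higher, and the lowest adjusted p was 0.37. At an unadjusted p under 0.05 there was 1 gene, ATP5F1. As a z score over all genes the differences of the ATP5 genes ran between -2.00 and 1.12, with a median of 0.08 beside -0.03 for all genes. Below 0 were 8 of the 18, as were 1528 of all 2969 genes. Without the scaling the tally turned, with 12 of the 18 log2 ratios below 0. The median ratio of the 18 genes was -0.07 beside -0.01 for all genes, and the median z was -0.21 beside 0.01. None of the 18 was called then either, the lowest adjusted p by the exact test was 0.062, and 4 genes had an unadjusted p under 0.05. The share of all genes at an unadjusted p under 0.05 was not counted, with or without the scaling.

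The genes at the low end were ATP5L, ATP5F1 and ATP5SL. The unscaled log2 ratio of ATP5F1 was -0.53 ± 0.53 (SD over 10 guides), with z = -1.87 and an adjusted p of 0.062 by the exact rank-sum test. Its scaled difference had z = -1.40 and an adjusted p of 0.37 by the same exact test. Of its guides, guide 7 had 92 counts in apilimod against 249 in DMSO, and guide 3 had 274 against 668, while guide 9 had 279 against 249. The unscaled log2 ratio of ATP5SL was -0.36 ± 0.37 over 10 guides, with z = -1.25 and an adjusted p of 0.17 by the exact test, and its scaled difference had z = -1.03 and an adjusted p of 0.49. For ATP5L the unscaled log2 ratio was -0.66 ± 1.43 over 9 guides, with z = -2.32 and an adjusted p of 0.39 by the exact test, and the scaled difference had z = -2.00 and an adjusted p of 0.64. This SD is larger than the mean, to which guide 4 with its 12 counts in apilimod and 213 in DMSO contributed most. At the high end of the scaled differences were ATP5E, with z = 1.12 and an unscaled log2 ratio of 0.22 ± 0.69 over 6 guides, and ATP5C1, with z = 1.04 and an unscaled log2 ratio of 0.23 ± 0.85 over 10 guides. ATP5D, the most depleted gene in each arm, had guides that went opposite ways, guide 3 with 4 counts in apilimod against 75 in DMSO and guide 2 with 75 against 13, and its unscaled log2 ratio was -0.16 ± 1.69 over 10 guides. Its sign depended on the scaling, with z = 0.69 for the scaled difference and z = -0.52 for the unscaled ratio.

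Genes that supply or regulate the enzyme were measured in the same way. SLC25A3, the carrier that brings phosphate into the matrix, was lower in both arms, with a score of -1.08 ± 0.99 in apilimod and -0.99 ± 0.59 in DMSO (SD over 10 guides, adjusted p by the exact rank-sum test 4.4e-05 and 2.5e-08). Of the 4 ADP/ATP carriers, which exchange the enzyme's substrate and product across the inner membrane, only SLC25A4 was called, and only in apilimod, with a score of -0.15 ± 0.25 there and -0.08 ± 0.27 in DMSO (SD over 10 guides, adjusted p by the exact rank-sum test 0.014 and 0.16). The difference between the arms was not called for SLC25A4 (adjusted p = 0.92 by the exact test). SLC25A5 had the highest scores of the carriers, 0.29 in apilimod and 0.13 in DMSO. ATPIF1, which inhibits ATP hydrolysis by the enzyme, had one of the highest scores in the DMSO library. It scored 0.46 ± 0.57 in apilimod and 0.57 ± 0.55 in DMSO, rank 2963 of 2969 from the lowest in DMSO, with 9285 counts in apilimod, 9631 in DMSO and 6459 in the initial population. It did not pass the test in either arm (SD over 10 guides, adjusted p by the exact rank-sum test 0.29 and 0.074). OXA1L, an insertase that places proteins in the inner membrane, was called lower in both arms. Its score was -0.17 ± 1.18 in apilimod and -0.92 ± 0.85 in DMSO (SD over 9 guides, adjusted p by the exact rank-sum test 0.030 and 0.0014). The difference for OXA1L had z = 3.05, and it was not called (p = 0.036 by the exact test, adjusted p = 0.42).

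Genes of the respiratory chain were called lower in both arms as well, set against the same 29.0% of all genes in apilimod and 18.9% in DMSO. Of 39 genes of complex I, 30 were lower in apilimod and 25 in DMSO, with median scores of -0.70 and -0.58. All 4 genes of complex II were lower in both arms, with medians of -1.61 in apilimod and -1.54 in DMSO. Of 26 genes of complexes III and IV, 16 were lower in apilimod and 15 in DMSO, with medians of -0.73 and -0.64. The V-ATPase, a proton pump of lysosomes that is built like the ATP synthase and runs in the opposite direction, had 12 of 22 genes lower in apilimod and 14 in DMSO, with medians of -0.59 and -0.73. In none of these lists was a gene called between apilimod and DMSO. The differences between the lists were not tested.

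The calls in each arm depended on what the guides were set against. With all gene-targeting guides of other genes in place of the intergenic controls, 5 of the 18 genes were lower in apilimod, beside 7.58% of all genes, and 3 were lower in DMSO, beside 7.48%. Over the same guides the counts were 17 in apilimod and 14 in DMSO for the 39 complex I genes, 3 and 4 for the 4 complex II genes, 7 and 8 for the 26 genes of complexes III and IV, and 8 and 11 for the 22 V-ATPase genes. The ATP5 genes called in apilimod were ATP5A1, ATP5B, ATP5D, ATP5F1 and ATP5SL. In DMSO they were ATP5A1, ATP5D and ATP5O. Against the same guides SLC25A3 was lower in both arms (adjusted p = 0.012 in apilimod and 0.00069 in DMSO by the exact test), SLC25A4 lost its call in apilimod (adjusted p = 0.76 by the exact test) and OXA1L was called in DMSO only (adjusted p = 0.55 in apilimod and 0.041 in DMSO by the exact test). ATPIF1 was then called higher in DMSO, with an adjusted p of 0.024 by the exact test, and not in apilimod, where it was 0.058.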

How the data were processed

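The values used were guide counts as deposited by the authors, not normalized, for 3 libraries. Per their methods and processing notes, cutadapt 4.1 was used for trimming to the guide, Bowtie2 2.4.5 for matching reads to the library and MAGeCK 0.5.9.5 for counting, and the notes name hg38. bcl2fastq was also named. The whole-series table and the library files held the same counts.

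Guides with under 100 initial counts and genes with under 6 guides were left out, which left 28042 guides against 2969 genes and 487 control guides. A pseudocount of 1 was added before division by the library total. The SD is over guides, which share a target and measure no spread between cultures. Genes were called at an adjusted p under 0.05 in the exact two-sided rank-sum test. With 1 library per group, count models had no residual degrees of freedom and were not used. The study's methods scale to core essential genes, for which 27 nucleotide synthesis genes stood in. The tests were tested on simulated data, with Python 3.11.15. The text names every ATP5 gene, its guides of lowest or highest change or those that show the spread, and called or extreme genes of the carrier and regulator lists. The members, gene lists and tests were chosen with earlier results of these data known. Guides without a gene's extreme value (guides 3, 9 and 10 of ATP5L2 and those named to show a split) were named after their values were seen. The guide sequences were not analysed here.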

Additional observations from a re-analysis of the deposited data

How the results depend on the processing

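With all other gene-targeting guides in place of the control guides, the ATP5 genes called lower numbered 5 in apilimod and 3 in DMSO, against 11 in each with the control guides. All genes called lower were then 225 of 2969 in apilimod and 222 in DMSO, against 862 and 560 with the control guides. With the median over guides in place of the mean, the median score of the ATP5 genes was -0.39 in apilimod, against -0.63, and -0.39 in DMSO, against -0.50. Over all genes that median was then -0.01 in apilimod and 0.03 in DMSO. No gene changed sign in a call. Under minimums of 30, 300 or no initial counts and a pseudocount of 10, the ATP5 genes called lower numbered 10 or 11 in apilimod. In that order, all genes called lower there were 827 of 2970, 763 of 2778, 823 of 2970 and 864 of 2969. In DMSO the ATP5 genes called lower numbered 11 or 12, beside 528, 511, 539 and 570 of the same totals of genes. At the minimum of 300 only 17 ATP5 genes were scored. Scaling to the control guides and the median over guides could not change these calls, because the test ranks guide values within an arm. Scaling to the control guides moved the median score of all genes to -0.30 in apilimod and -0.16 in DMSO. It moved that of the ATP5 genes to -0.89 in apilimod and -0.63 in DMSO. ATP5E kept under 6 guides at a minimum of 300 and gave no value there. Beyond the change of control guides, ATP5I lost its call in both arms with no minimum, and in DMSO ATP5L gained one at a minimum of 300 and ATP5S at minimums of 30 and none. OXA1L lost its call in apilimod at minimums of 30 and none. Between apilimod and DMSO, 0 of the 18 genes were called under any of the 9 alternatives, which also took the arms unscaled or scaled to complex I genes. Scaling to the control guides was among them and could not change this difference. The median z of the ATP5 genes lay between -0.27 and 0.10 over the 9 alternatives. Scores without a gene's lowest guide were computed after the data were seen. No paired analysis was possible because each group has 1 library. With 1 library per group the spread between cultures is unknown, and some calls changed with the minimum of initial counts. The minimum also changes the control guides and the genes adjusted over, so the part of single low-count guides was not tested.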
